A study of Homo sapiens with 20 samples.

Results

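The Notch pathway set held 10 genes: the receptors NOTCH1, NOTCH2 and NOTCH3, the ligands JAG1, JAG2 and DLL1, the target genes HES1 and HEY1, the inhibitor NUMB and the coactivator MAML1. A peak was assigned to one of these genes when its summit, the base of highest enrichment, lay in an exon of that gene in the GENCODE 44 annotation of hg38. This gave 174 of the 231465 peaks in the 10 lists, and these fell into 29 of the 43676 regions obtained by merging overlapping peaks across libraries. The data were methylated RNA immunoprecipitation sequencing (MeRIP-seq) peak lists from 2 human bladder cancer cell lines, in which RNA fragments carrying N6-methyladenosine (m6A) were pulled down by an antibody (IP) and set against input RNA. T24 responds to cisplatin, whereas T24R2 was selected from T24 under the drug and resists it, so each line is a single model of its state. Both were labelled WT for genotype, collected at day 3, and represented by 5 IP libraries each. The study's methods say that T24R2 was kept in medium containing cisplatin and give no drug for T24, so resistance and exposure to the drug cannot be told apart in any comparison of the lines. Nothing says whether the libraries came from separate cultures, so the p-values below measure the spread between libraries, which may be technical.

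Notch is a receptor that is cut when a ligand on a neighbouring cell binds it. Its intracellular domain then enters the nucleus and, with the DNA-binding protein RBPJ and a Mastermind-like coactivator such as MAML1, turns on target genes of the HES and HEY families. NUMB antagonizes the receptor. The pathway controls cell fate in many epithelia, the urothelium among them. m6A is the most common internal modification of mRNA. It is placed in the DRACH motif, where D is any base but C, R is a purine and H is any base but G, and it is known to be frequent in long exons and around stop codons.

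The windows below are the sequences beneath the regions called in all 10 libraries and beneath the NUMB region that was called in T24R2 libraries. They are shown because the strength tests of member regions below, except that of HEY1, refer to these places, as does the presence test of NUMB. Each runs 5′ to 3′ on the transcript strand of hg38, and all but the shorter ones are centred on the median summit. The HEY1 sequence is not shown. For NOTCH2, HES1 and NUMB, whose windows reach into an untranslated region, only the bases around the DRACH match nearest to the summit are given. In these stretches only that nearest match is in capitals, and in the other windows every DRACH match is.
JAG1, last exon, chr20:10639573-10639673, minus strand: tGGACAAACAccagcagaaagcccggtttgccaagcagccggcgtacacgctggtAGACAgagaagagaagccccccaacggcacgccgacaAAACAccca
JAG2, last exon, chr14:105142835-105142935, minus strand: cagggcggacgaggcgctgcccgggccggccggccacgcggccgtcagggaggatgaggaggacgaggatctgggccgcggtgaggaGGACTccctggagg
NOTCH1, last exon, chr9:136496254-136496354, minus strand: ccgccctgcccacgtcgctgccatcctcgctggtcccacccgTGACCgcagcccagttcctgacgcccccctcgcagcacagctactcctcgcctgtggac
MAML1, exon 3, chr5:179768850-179768941, plus strand: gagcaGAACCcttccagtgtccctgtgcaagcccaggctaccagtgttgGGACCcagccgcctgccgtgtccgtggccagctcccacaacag
MAML1, last exon, chr5:179773962-179774062, plus strand: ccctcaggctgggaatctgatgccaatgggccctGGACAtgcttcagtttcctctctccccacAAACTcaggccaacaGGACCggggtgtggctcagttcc
NOTCH2, last exon, chr1:119915341-119915365, minus strand: cggggacctgGGACAcacatgtctg
HES1, 3′UTR, chr3:194138249-194138273, plus strand: ccctcctcctAAACTccccaaccca
NUMB, 3′UTR, chr14:73276492-73276516, minus strand: ggagcaaaacAGACTttgtctcctg
The JAG1 window held 4 DRACH matches, and the A of the nearest lay 7 nt downstream of the median summit. The JAG2 window held 1, with its A 39 nt downstream. The NUMB match nearest to the median summit had its A 1 nt upstream of it.

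Peaks were found in exons of 9 of the 10 genes, and NOTCH3 had none in any library. The total number of member peaks was 11, 15, 19, 15 and 21 in T24 replicates 1 to 5 and 21, 14, 15, 20 and 23 in T24R2 replicates 1 to 5. The ranges of the lines overlapped. Each list was also of different length, with 17203 to 22901 peaks in T24 and 22671 to 33120 in T24R2. Per 1000 exonic peaks of the library, T24 had 1.02 ± 0.203 member peaks and T24R2 0.984 ± 0.148 (SD, n = 5 each). The lists give no read counts, so depth is unknown, and a missing peak cannot be told apart from a transcript too scarce to be called.

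The lists were also checked for genes that mark the labelled cell type, with the caution that a peak is not a measure of expression. Of 13 urothelial or epithelial markers, 4 had an exonic peak in any library (KRT7, KRT18, GATA3 and PPARG), and 1 had one in all 10. The mesenchymal list had peaks in 2 of 3 genes, VIM and CDH2, 1 of them in all 10 libraries. The leukocyte list had a peak in 1 of 4 genes, CD14. The endothelial list had peaks in 2 of 3 genes, PECAM1 and CDH5, both in all 10 libraries, with summed numbers of 3 to 6 peaks in T24 and 2 to 4 in T24R2. The part of these genes in the Notch results was not tested.

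Most members had a region near the stop codon. In 8 of the 9 genes with peaks, at least 1 region had its median summit within 250 nt of the stop codon, a window chosen after the positions were seen. Over all protein-coding genes with an exonic peak, 56.3% of 9649 had such a region. MAML1 was the exception. All peaks of HES1, DLL1 and NUMB lay in this window, but only 10 of 35 in NOTCH2, 11 of 27 in NOTCH1, 10 of 25 in HEY1, 10 of 22 in JAG1 and 11 of 19 in JAG2. Counting from the stop codon, with negative positions upstream, the median summits lay at −33 nt in NOTCH2, −105 nt in DLL1, −123 nt in JAG1, −188 nt in JAG2 and −231 nt in NOTCH1, all in coding sequence. Those of HEY1 at 8 nt, HES1 at 26 nt and NUMB at 77 nt lay in the 3′UTR. By peaks rather than genes, 42.2% of the 173 member peaks on the main (MANE) transcript lay within 500 nt of the stop codon and 54.9% in the last exon, against 40.2% and 55.0% of all 145318 protein-coding exonic peaks. Coding sequence held 68.2% of the member peaks, the 3′UTR 22.0% and the 5′UTR 9.83%.

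**Figure D1:**
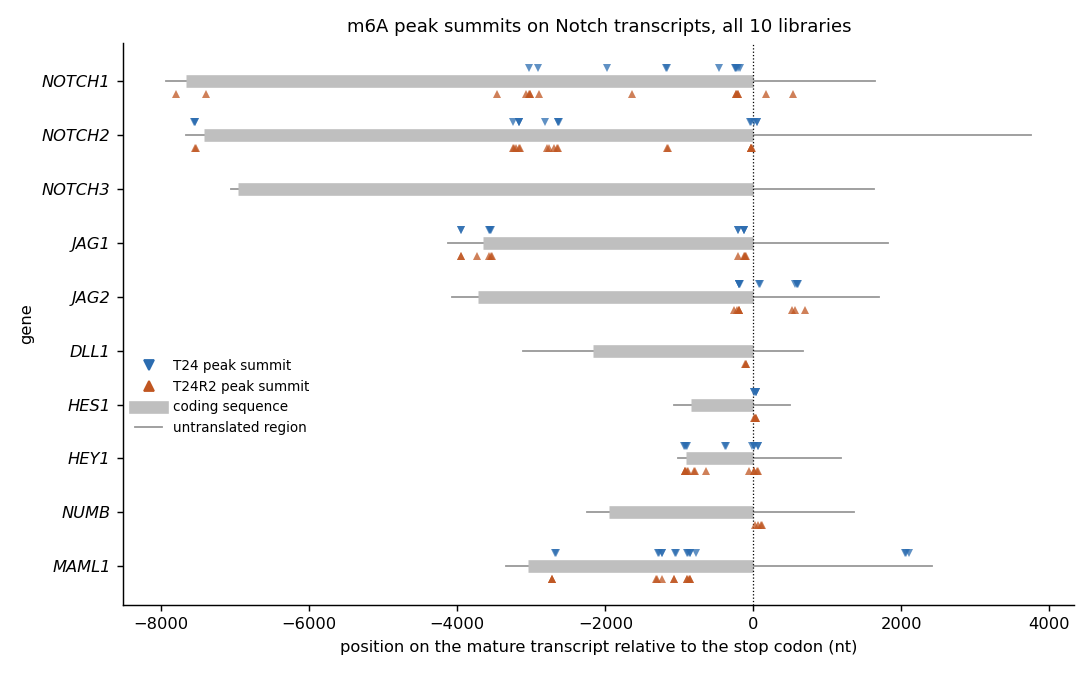
Summits of the member peaks along the mature transcript of each gene, in nt from the stop codon, with T24 libraries above and T24R2 libraries below each line. The thick bar is coding sequence, the thin line untranslated sequence, and 173 of the 174 peaks lie on the drawn transcripts. Of the 9 genes with peaks, 8 have a region within 250 nt of the stop codon, most of them with other summits elsewhere, and NOTCH3 has no peak.

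A DRACH match lay within 50 nt of the summit for 147 of 167 member peaks, those whose exon belongs to genes of a single strand, or 88.0%. On the opposite strand of the same windows the share was 68.3%. All exonic peaks gave 90.5% and 71.6% for the sense and the opposite strand, so the shares of the members were close to those of all peaks. The shorter motif GGAC was found in 65.3% of member windows and 47.9% of all windows on the sense strand, and in 26.3% and 24.4% on the opposite strand. These shares describe the sequences, and the libraries share the same windows, so no test was made.

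Peak strength was compared between lines as the percentile of a peak's fold enrichment (IP over input) within its own list, because the scale of the lists differs. The study warns that differences in expression can be mistaken for differences in methylation. The lists give no RNA level, so the part of transcript abundance in any strength difference below was not tested. Only regions called in all 10 libraries were tested, by limma on the normal score of the percentile. The Benjamini-Hochberg method was applied over all 9577 such regions, of which 1.08% passed at 0.05 in either direction and 0.877% were higher in T24R2. Of the 8 Notch regions tested, 1 was called, the JAG1 region before the stop codon, and it was higher in T24R2. None was called lower. The 8 regions had a median score difference of 0.13 and all tested regions one of 0.19. With every list reduced to the same number of peaks the median over all tested regions was 0.0016.

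**Figure D2:**
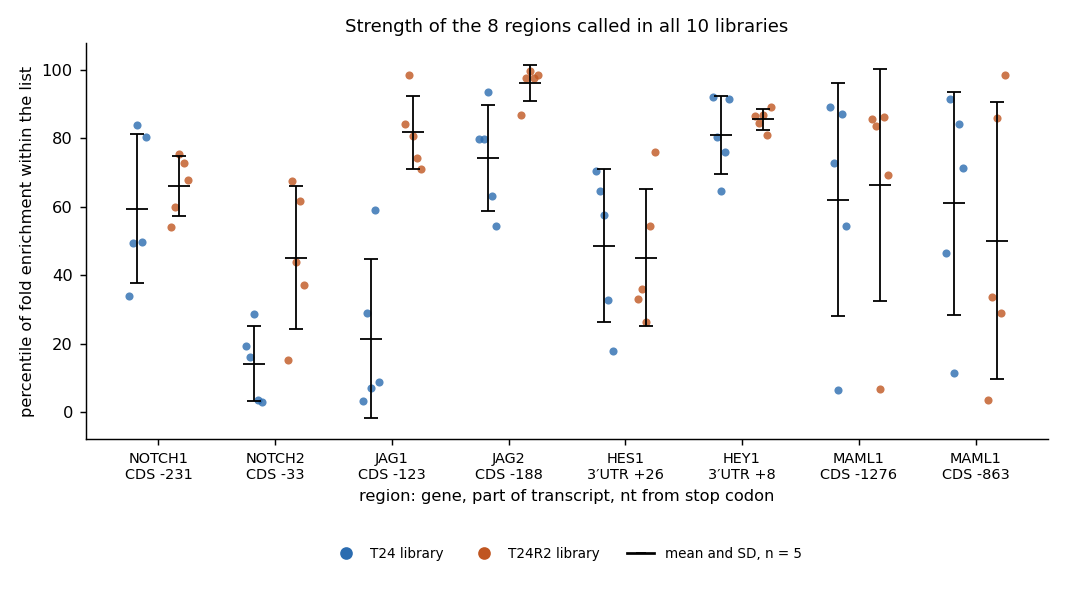
Percentile of fold enrichment within the library's own list for the 8 Notch regions called in all 10 libraries. Points are libraries, and bars give the mean and SD of 5 libraries per line. The JAG1 points of the lines do not overlap, at up to 59.0 in T24 and from 71.0 in T24R2.

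Among the ligands, the JAG1 region stood out. JAG1 encodes Jagged1, a membrane-bound ligand that activates Notch on the adjacent cell. Its region at chr20:10639315-10639978 lay in coding sequence of exon 26, the last, which is 2272 nt long. The percentile of fold enrichment was 3.23, 28.9, 7.10, 59.0 and 8.81 in T24 replicates 1 to 5. In T24R2 replicates 1 to 5 it was 84.3, 98.5, 80.7, 74.3 and 71.0. By this percentile every T24R2 library was above every T24 library, an arrangement found in 3.63% of the 9577 regions. T24 averaged 21.4 ± 23.3 and T24R2 81.7 ± 10.7 (SD, n = 5 each), and the fold enrichment itself was 4.71 ± 1.93 and 12.6 ± 6.07. The score difference was 2.05 (SE 0.44), with an adjusted p of 0.0208 by limma and rank 51 of the 9577 regions by p. The call was lost without T24 replicate 3 (adjusted p = 0.0538), without T24R2 replicate 2 (adjusted p = 0.0799), when each list was reduced to its 17203 peaks of lowest q (adjusted p = 0.0806), and by the exact permutation test (adjusted p = 0.176), which called no region at all, while the difference stayed positive in each.

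The summit of the JAG1 region stayed within one stretch of 104 nt in all 10 libraries. It lay between −206 and −102 nt from the stop codon, and the mean positions of the lines differed by 24 nt (exact permutation p = 0.214, two-sided). The −log10 q of its peaks was 9.64 to 44.7 in T24 and 33.8 to 134 in T24R2, against a lowest value of 2.00 in any list. As percentiles of −log10 q within the list these were 58.5 to 96.0 and 94.1 to 99.9, so the lines overlapped by this measure. The region was still called by it (adjusted p = 0.0202 by limma).

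JAG1 carried another region in exon 2, near the start of its coding sequence, called in 4 T24 and 3 T24R2 libraries. The percentiles in T24 replicates 1, 2, 3 and 5 were 16.0, 73.6, 93.8 and 93.2. In T24R2 replicates 1, 4 and 5 they were 20.6, 11.5 and 80.7. The lines overlapped, and the T24R2 values were not higher there. An exon of the gene ENSG00000270792 overlaps this place and the lists carry no strand, so these peaks can belong to either gene. The 69 nt of the exon around the median summit hold 0 DRACH matches on the JAG1 strand and 3 on the other:
JAG1, exon 2, chr20:10672938-10673006, minus strand: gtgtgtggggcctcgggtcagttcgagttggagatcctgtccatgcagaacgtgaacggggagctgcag
A region in the JAG1 5′UTR was called in 2 T24 and 3 T24R2 libraries, at percentiles from 0.764 to 69.8.

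JAG2 encodes Jagged2, a ligand of the same family. It had a single region, chr14:105141768-105143238, that spanned the end of the coding sequence and the start of the 3′UTR in exon 26. The percentile was 79.9, 79.7, 93.7, 63.2 and 54.4 in T24 replicates 1 to 5, and 86.8, 97.8, 99.8, 97.7 and 98.6 in T24R2 replicates 1 to 5. T24R2 replicates 2 to 5 were above every T24 library, and T24R2 replicate 1 lay inside the T24 range. T24 averaged 74.2 ± 15.5 and T24R2 96.1 ± 5.27 (SD, n = 5 each), and the score difference was 1.30 (SE 0.36). This did not pass over all regions (adjusted p = 0.0730 by limma). Ranking peaks by −log10 q instead brought it under the threshold (adjusted p = 0.0460). Peaks of lower enrichment in the 3′UTR part of the region accompanied it in both lines, with summits 70 to 603 nt past the stop codon in T24 and 515 to 694 nt past it in T24R2. In T24 replicate 4 such a 3′UTR peak, 589 nt past the stop codon, was the strongest of the region.

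DLL1, a Delta-like ligand, had 3 peaks in all, in T24R2 replicates 1, 3 and 4. They lay in exon 10, between −113 and −97 nt from the stop codon, at percentiles of 66.8, 71.3 and 7.85. No T24 library had an exonic DLL1 peak. The difference of 0 against 3 libraries of 5 had p = 0.167 (two-sided Fisher's exact test).

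Among the receptors, NOTCH2 was nearest to the JAG1 pattern without passing the test. Its region over the stop codon, chr1:119914542-119915906, lay in exon 34, the last, which is 5142 nt long. The percentile was 19.4, 16.0, 28.7, 3.58 and 3.01 in T24 replicates 1 to 5 and 15.3, 67.6, 43.97, 61.6 and 37.2 in T24R2 replicates 1 to 5. T24R2 replicate 1 was inside the T24 range and the other 4 were above it. T24 averaged 14.1 ± 10.9 and T24R2 45.1 ± 20.8 (SD, n = 5 each). The score difference was 1.07 (SE 0.41), with an unadjusted p of 0.0148 and an adjusted p of 0.191 by limma. Over all 9577 regions 15.3% had an unadjusted limma p under 0.05. For NOTCH2 that p was 0.0659 with quantile-normalized log2 fold enrichment and 0.0502 with equal numbers of peaks per library.

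Upstream of it, NOTCH2 had regions in exon 26 and exon 25, each called in 4 T24 and all 5 T24R2 libraries. Their mean percentiles were 42.3 and 17.4 in T24 and 25.5 and 19.6 in T24R2. A further region of the last exon, at −1159 nt from the stop codon, was called in T24R2 replicates 4 and 5 at percentiles of 3.47 and 6.27. The exon 1 region was called in 3 T24 and 2 T24R2 libraries. The 51 nt around its summit occur at 2 places on chromosome 1, so those peaks are uncertain, whereas the corresponding 51 nt of each of the other NOTCH2 regions occur once.

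NOTCH1 was called before the stop codon in all 10 libraries, with no difference in the percentile of fold enrichment that could be detected. The region, chr9:136495691-136497642, lay in exon 34, the last. The percentile was 33.8, 49.5, 83.9, 49.6 and 80.3 in T24 replicates 1 to 5 and 54.1, 60.1, 75.5, 72.8 and 67.9 in T24R2 replicates 1 to 5. The T24R2 values lay inside the T24 range, and the score difference was 0.14 (SE 0.37, adjusted p = 0.902 by limma). Ranked by −log10 q instead, the lines did not overlap, at percentiles of 50.3 to 80.0 in T24 and 81.0 to 87.2 in T24R2. The score difference by that measure was 0.54 (unadjusted p = 0.0387, adjusted p = 0.206 by limma) and did not pass. The strongest summit of the region lay at −1183 and −1170 nt from the stop codon in T24 replicates 2 and 5. In T24 replicates 1, 3 and 4 it lay at −235, −247 and −242 nt, and in T24R2 between −232 and −214 nt. T24 replicates 2 and 5 also had a weaker peak at −175 and −214 nt, so the end of the gene was marked in every library. The mean summit position differed by 394 nt (exact permutation p = 0.00794, two-sided, the smallest that 252 assignments allow). After adjustment the p was 0.957. Over all 9577 regions 3.79% had an unadjusted p under 0.05 and 0% passed after adjustment. This shift rests on the T24 replicates in which a different peak of the region was the strongest.

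Another NOTCH1 region, in exon 26, was called in 2 T24 and all 5 T24R2 libraries (p = 0.167, two-sided Fisher's exact test). Its percentiles were 23.5 and 61.9 in T24 replicates 1 and 5 and 5.53 to 49.2 in T24R2. The remaining 6 NOTCH1 regions were each called in a single library, 1 in T24 and 5 in T24R2. They made NOTCH1 the gene with the largest number of regions, 8, of the 10 members. Regions of a single library were common, at 6312 of all 29269 exonic regions and 7 of the 29 member regions. The T24R2 lists were also longer, with a mean of 25837 peaks against 20456 in T24. NOTCH3 was listed with no exonic peak in any library and none in its introns.

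In the target genes no difference in strength passed the test. HES1 and HEY1 encode transcriptional repressors that are switched on by Notch signalling. The HES1 region in the 3′UTR, chr3:194137978-194138496, had percentiles of 70.4, 64.5, 57.7, 32.8 and 17.9 in T24 replicates 1 to 5 and 33.0, 36.1, 26.4, 54.3 and 76.0 in T24R2 replicates 1 to 5. The ranges were nearly the same. All 10 summits lay 9 to 38 nt past the stop codon, and the mean difference in score was −0.07 (SE 0.41, adjusted p = 0.964 by limma). HES1 had exactly 1 exonic peak in each of the 10 libraries.

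The HEY1 stop codon region had the highest mean percentile of the tested receptor and target regions in both lines. Its region at the stop codon, chr8:79765002-79765837, had percentiles of 92.2, 80.6, 64.8, 76.1 and 91.4 in T24 replicates 1 to 5 and 86.5, 84.5, 86.9, 81.0 and 89.2 in T24R2 replicates 1 to 5. The T24R2 values lay inside the T24 range, and the score difference was 0.12 (SE 0.32, adjusted p = 0.902 by limma). Ranked by −log10 q instead, the lines did not overlap, at percentiles of 55.8 to 85.7 in T24 and 91.1 to 94.2 in T24R2. The score difference by that measure was 0.80 (unadjusted p = 0.00314, adjusted p = 0.0679 by limma) and did not pass either. HEY1 also had a region at its start codon, in exon 1, called in 4 T24 and 5 T24R2 libraries. There the percentiles were 24.4, 44.5, 84.7 and 66.4 in T24 replicates 1, 2, 4 and 5, and 89.1, 83.8, 90.0, 79.6 and 50.3 in T24R2 replicates 1 to 5. A region in exon 2 was called in T24R2 replicates 2, 3 and 5 and in no T24 library (p = 0.167, two-sided Fisher's exact test), and one in exon 4 in T24R2 replicate 5 alone. Per kb of mature transcript HEY1 had the most peaks of the members, with 1.00 ± 0.381 in T24 libraries and 1.27 ± 0.381 in T24R2 libraries (SD, n = 5 each). HES1 followed with 0.635 in every library.

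NUMB had its single region, chr14:73276445-73276737, in T24R2 libraries alone. The protein binds the Notch receptor and promotes its removal from the membrane. Peaks in the 3′UTR, 17 to 110 nt past the stop codon, were called in T24R2 replicates 1, 2, 4 and 5 and in none of the T24 libraries. They were weak, at percentiles of 5.76, 1.21, 6.23 and 28.1, and their fold enrichment was 2.72 to 5.17. The 0 against 4 libraries gave p = 0.0476 (two-sided Fisher's exact test) and an adjusted p of 0.517 over 43676 regions. More frequent calls in T24R2 at an unadjusted p under 0.05 were made in 7.11% of all regions. Of the 29 Notch regions 1 was so called, and none passed after adjustment, as none of the 43676 did. No Notch region was called in all 5 libraries of one line and none of the other. With each list reduced in the same way, 1 T24R2 library kept the NUMB region.

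MAML1 differed from the other members in position. It encodes a nuclear protein that bridges the Notch complex to histone acetyltransferases. Of its 5 regions, 2 were called in all 10 libraries, in exon 3 and in the last exon. The last-exon region, chr5:179773854-179774255, lay at −863 nt from the stop codon, with percentiles of 46.6, 91.6, 11.3, 84.4 and 71.4 in T24 replicates 1 to 5 and 3.52, 33.7, 86.1, 28.8 and 98.6 in T24R2 replicates 1 to 5. Both lines ran from weak to strong, and the score difference was −0.24 (SE 0.59, adjusted p = 0.900 by limma). The exon 3 region, chr5:179768722-179769004, averaged 62.0 ± 34.1 among T24 libraries and 66.3 ± 34.0 among T24R2 libraries (SD, n = 5 each). Its score difference was 0.11 (SE 0.53, adjusted p = 0.950 by limma). Only 4 T24 and 3 T24R2 libraries had their summit inside the exon there, which is 240 nt long, and in the others the strongest summit lay outside it. A 3′UTR region of MAML1, 2061 nt past the stop codon, was called in T24 replicates 3, 4 and 5 at percentiles of 53.4, 64.7 and 42.9 and in no T24R2 library (p = 0.167, two-sided Fisher's exact test).

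**Figure D3:**
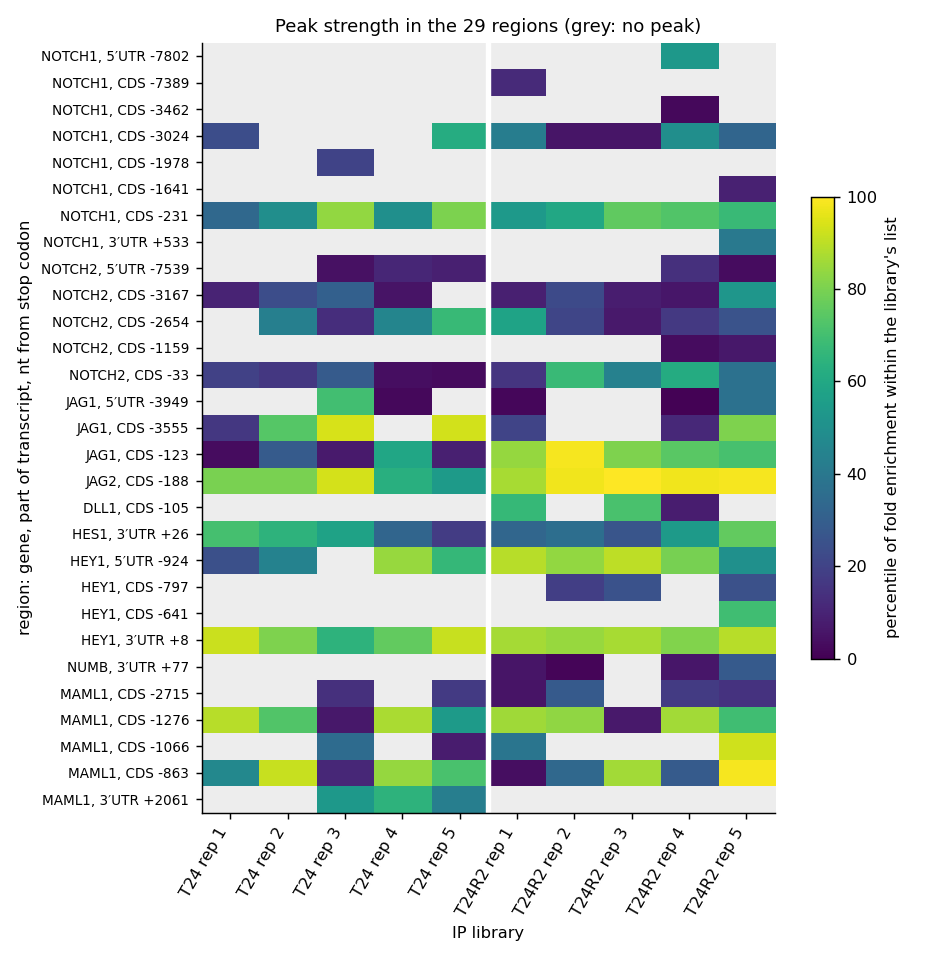
Percentile of fold enrichment in each of the 29 Notch regions (rows, named by gene, part of the transcript and nt from the stop codon) and 10 IP libraries (columns). Grey marks a library without a peak in the region. The row of JAG1 at −123 nt is darker in T24, where replicate 4 is the highest at 59.0, than in T24R2. In all, 8 rows are filled in all 10 libraries.

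**Figure D4:**
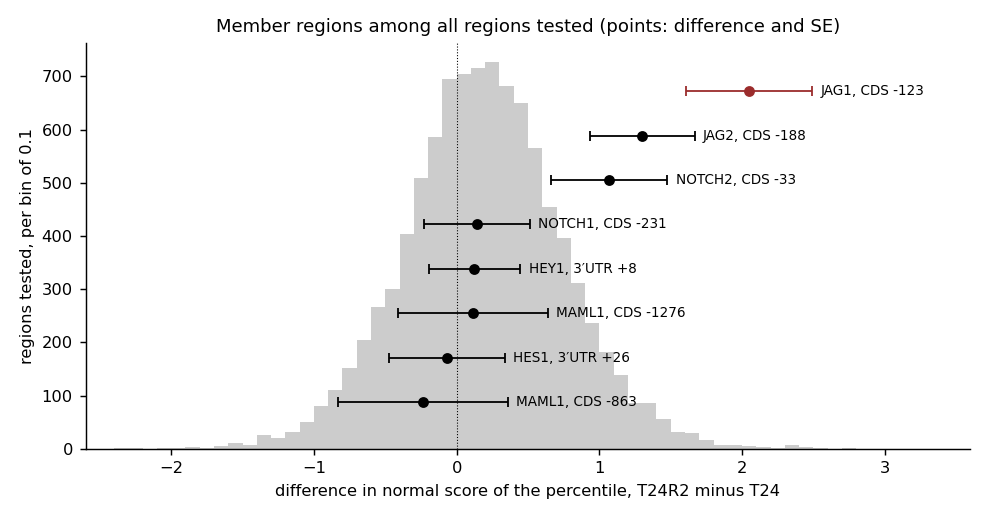
Difference in the normal score of the percentile, T24R2 minus T24, for the 9577 regions tested (grey, regions per bin of 0.1) and for the 8 Notch regions (points with SE, placed at arbitrary heights). JAG1 lies at 2.05, JAG2 at 1.30 and NOTCH2 at 1.07, and the other 5 lie between −0.24 and 0.14.

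The number of exonic peaks per gene differed little. For NOTCH1, T24 libraries had 2.20 ± 1.095 and T24R2 libraries 3.20 ± 1.095 (SD, n = 5 each). The values were 3.20 ± 0.837 and 3.80 ± 1.095 for NOTCH2, and 2.20 ± 0.447 and 2.20 ± 1.095 for JAG1. The number of JAG1 peaks was thus equal, although one JAG1 region was called stronger in T24R2 by the main strength test, a call lost under some alternatives. These JAG1 numbers include the exon 2 peaks of 4 T24 and 3 T24R2 libraries, which can belong to ENSG00000270792. NUMB alone had an unadjusted p under 0.05, with 0 peaks in T24 and 0.800 ± 0.447 (SD, n = 5) per T24R2 library (exact permutation p = 0.0476, adjusted p = 0.342). Of all 13976 genes 13.9% had an unadjusted p under 0.05 by this test and none passed after adjustment. By limma on the same numbers NUMB passed over all genes (adjusted p = 0.0298), one of 1412 genes that did. With a replicate block in the limma fit NUMB did not pass (adjusted p = 0.0936).

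**Figure D5:**
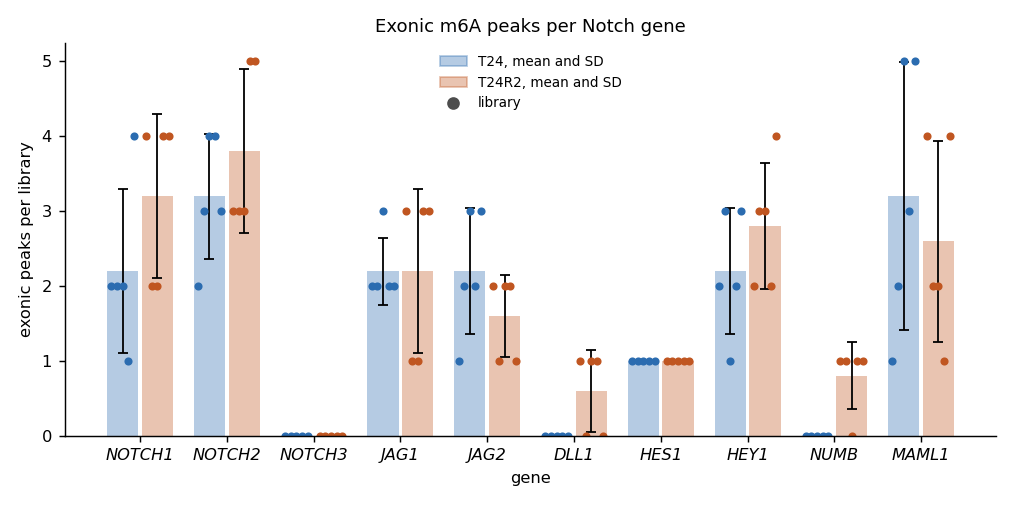
Exonic m6A peaks per library for each of the 10 Notch genes. Bars are means and error bars SDs of 5 libraries per line, and points are libraries. HES1 has 1 peak in every library, NOTCH3 has none, and NUMB and DLL1 have peaks in T24R2 libraries only.

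Beyond the members, 58 other genes of the pathway were examined, and 40 of them had an exonic peak, in 152 regions. The strength test was made for 57 of these regions, and limma called none. At an unadjusted p under 0.05 there were 7 by limma (12.3%, against 15.3% of all 9577 regions) and 8 by the exact permutation test (14%, against 13.9%). The lowest adjusted p was 0.0620, and the median score difference was 0.19, equal to that of all regions tested. By presence, 12 regions (7.89%, against 7.11% of all regions) were called more often in T24R2 and 4 (2.63%, against 2.09%) more often in T24 at an unadjusted p under 0.05, and none passed after adjustment. In number of peaks per gene, 6 genes of 40 had more in T24R2, against 10.4% of all genes, and 2 had more in T24, against 3.53%, at an unadjusted p under 0.05. None passed after adjustment.

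In 5 regions of this wider list, all libraries of one line and none of the other had a peak (Fisher's exact p = 0.00794 and adjusted p = 0.195 for each). They were 3.29% of the 152 regions, and 3.6% of all 29269 exonic regions were of this kind, so the share was near the background. Their values are given as a description. The T24R2 regions were 4. HES6, a relative of HES1, had one in the 5′UTR, chr2:238239555-238240016, with a mean percentile of 41.4 ± 19.5 (SD, n = 5). NEURL1, a ubiquitin ligase that acts on Notch ligands, had one in the 5′UTR and one in coding sequence, with mean percentiles of 33.0 ± 19.5 and 31.3 ± 13.6 (SD, n = 5). Its exonic peaks numbered 0.200 ± 0.447 per T24 library and 4.00 ± 1.22 per T24R2 library (SD, n = 5, exact permutation p = 0.00794, adjusted p = 0.134). SPEN, a corepressor that binds RBPJ, had one in coding sequence at a mean percentile of 4.02 ± 4.66 (SD, n = 5). The T24 region lay in an exon of RBPJ outside its main transcript, chr4:26319615-26320173, at a mean percentile of 35.4 ± 13.6 (SD, n = 5). RBPJ had 3.20 ± 0.447 exonic peaks per T24 library and 1.20 ± 0.447 per T24R2 library (SD, n = 5, exact permutation p = 0.00794, adjusted p = 0.134). DLL4, another Delta-like ligand, is added after its values were seen: it had 2.00 ± 0.707 exonic peaks per T24 library (SD, n = 5) and none in T24R2 (exact permutation p = 0.00794, adjusted p = 0.134).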

How the data were processed

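MeRIP-seq peak lists of 10 IP libraries, 5 each of T24 and T24R2, were used. Groups and replicate numbers came from the sample titles. The authors aligned reads to hg38 with STAR 2.7.0, kept unique reads without duplicates with SAMtools 1.10 and called IP over input peaks per library with MACS2, listed as version 3.0.0a6 in the submitters' processing notes. Each deposited row gives a position, a score derived by the peak caller from the q-value, a fold enrichment (a ratio), a −log10 p-value and a −log10 q-value. The authors' values were taken as deposited, with no −log10 q under 2.00. The score and p-value columns were not used further. The lists hold no read counts, so counts in peaks could not be tested and depth is unknown.

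The 10 Notch genes and the lists were chosen with earlier results of these data known. Summits were assigned to exons of GENCODE 44, and positions refer to the MANE transcript. Regions were taken from the submitters' deposited list of merged peaks, and a region was present in a library when a peak overlapped it. Strength was the within-list percentile of fold enrichment of the strongest peak, tested as a normal score with limma 3.58.1 in R 4.3.3 (trend, no block). Presence was tested by Fisher's exact test, and peaks per gene and summit position by exact permutation over 252 assignments (scipy 1.17.1), each two-sided with Benjamini-Hochberg adjustment over all regions or genes. All 10 members were named. Of the 58 other pathway genes, those with a region present in all libraries of one line and none of the other, or passing the strength test, were named. Scripts were tested on simulated data.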

Additional observations from a re-analysis of the deposited data

Results flagged for a closer look

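Dixon's test at the 95% level, with a critical ratio of 0.71 for 5 libraries, was applied to 36 sets of 5 libraries of one line, and it marked 5 of them, where chance marks about 5%. Within T24R2, replicate 1 of the JAG2 region had the lowest percentile, 86.8, while the others were 97.7 to 99.8 (ratio 0.84). Within T24R2, replicate 3 of the MAML1 exon 3 region was at 6.79, with the others at 69.4 to 86.2 (ratio 0.789). Within T24R2, replicate 5 of the HEY1 start codon region was at 50.3, with the others at 79.6 to 90.0 (ratio 0.739). The remaining 2 were numbers of peaks per gene, where ties make the ratio 1 whenever a single library differs: JAG1 in T24, with 3 peaks in replicate 3 and 2 in each other library, and NUMB in T24R2, with 0 in replicate 3 and 1 in each other library.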

How the results depend on the processing

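The JAG1 region before the stop codon was higher in T24R2 under all 19 alternatives that could be computed, with adjusted p from 0.00991 to 0.176. The number of Notch regions called for strength was 1, became 2 when peaks were ranked by −log10 q (JAG2 was added), and was 0 under the exact permutation test, with a −log10 q of at least 10, and with equal numbers of peaks per library. It was 0 to 1 when a library was left out, and 0 without T24 replicate 3 or T24R2 replicate 2. The exact permutation test called 0 of all 9577 regions at this size. With a −log10 q of at least 10 only 1 member region remained testable, and the JAG1 region was not it. Percentiles were also recomputed among the regions called in all 10 libraries, and region presence by exonic summits, both chosen after seeing the data. The median shift over all regions was then −0.0049 in place of 0.19, and the share of higher calls 57.9% in place of 81.6% (57.3% with quantile-normalized log2 fold enrichment, 65.5% with equal numbers of peaks), with 76 regions called in place of 103, and the JAG1 region still called. The number called over all regions was 274 with −log10 q, 176 with regions called in at least 3 libraries of each line, 64 with a −log10 q of at least 5, 18 with one of at least 10, 29 with equal numbers of peaks and 75 with quantile normalization.

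The replicate numbers did not pair the libraries: correlations of same-numbered libraries were 0.0022, −0.0444, 0.0416, −0.0077 and 0.120, and 1 of 5 correlated best with its own number. With a replicate block, 1 Notch region was called for strength, 86 of 9577 regions in all, and 1 gene had an unadjusted p under 0.05 in peaks per gene (850 genes adjusted, against 1412 by limma without the block). NUMB passed adjustment by limma without the block and not with it (adjusted p = 0.0936).

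Presence calls at an unadjusted p under 0.05 numbered 1, 0 with a fold enrichment of at least 4 or with equal numbers of peaks, 2 with a peak cover of at least 50% of the region, and 1 to 3 with a library left out. Line-specific regions of the wider list numbered 5, 2 with a −log10 q of at least 10 or a fold enrichment of at least 4, 3 with equal numbers of peaks or 50% cover, and 5 to 8 with a library left out (8 without T24 replicate 3). Genes with an unadjusted p under 0.05 in peaks numbered 1 (NUMB), 0 with equal numbers of peaks, 2 by limma and 1 to 2 with a library left out. With a −log10 q of at least 10 the 1 gene was HEY1, and NUMB had no peak left. Summit positions at an unadjusted p under 0.05 numbered 1 (NOTCH1), and 0 to 3 with a library left out: 0 without any 1 T24R2 library and 3 without T24 replicate 1. DRACH shares were 88.0%, 68.3% within 25 nt and 65.3% for GGAC.

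Differences that changed sign were all small and uncalled. With quantile normalization NOTCH1 was at −0.0423 and MAML1 exon 3 at −0.0377. With equal numbers of peaks HEY1 was at −0.0161 and NOTCH1 at −0.0858. Ranked among shared regions, HEY1 was at −0.0031, NOTCH1 at −0.0682 and MAML1 exon 3 at −0.0555. HES1 was at 0.15 with −log10 q. Leaving out a library gave −0.29 to 0.0781 for HES1, −0.018 to 0.24 for HEY1, −0.0317 to 0.32 for NOTCH1, −0.34 to 0.59 for MAML1 exon 3 and −0.76 to 0.24 for its last exon. In peaks per gene, JAG2 was at 0.400 and MAML1 at 0.200 with a −log10 q of at least 10, and NOTCH1 at −0.200 and NOTCH2 at −0.400 with equal numbers of peaks. Causes were not tested.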

Other observations

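MAML1 was the single member with peaks inside the gene body but outside its exons. There was 1 such peak in T24, in 1 library, and 3 in T24R2, in 2 libraries. Only their summits lay outside the exons. The peaks fell in the MAML1 regions of exon 2 and exon 3, where they were already counted as calls, so they are not separate regions. The other 9 genes had none in any library.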
